A study of Caenorhabditis elegans with 123 samples.

Results

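The comparison described here sets mex-3(zu155); skn-1(RNAi) embryos of Caenorhabditis elegans, called mex-3/skn-1 below, at 186 min against embryos of the same genotype at 83 min. Its members were the 8 arrays labelled with that genotype and those times, 4 at 186 min and 4 at 83 min, out of 28 arrays of this genotype and 6.50% of all arrays of the series. Every array held RNA of a pool of staged embryos, and time was counted from the 4-cell stage at 22 °C. All 8 pools were labelled with the mex-3(zu155) mutation and the RNAi against skn-1, so that by their labels only age differed between them. The other genotypes used for comparison were pie-1(zu154) (3 arrays at 186 min and 2 at 83 min), pie-1(zu154); pal-1(RNAi), called pie-1/pal-1 (4 and 3 arrays), and the wild type N2 (3 and 4 arrays).

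MEX-3 is an RNA-binding protein that keeps the maternal pal-1 message from being translated in the anterior blastomeres, and SKN-1 is a maternal transcription factor that the EMS blastomere needs for its fate as the source of the gut and of much of the pharynx. Without both, many cells of the embryo follow the program of the C blastomere, whose descendants in the wild type are mostly body-wall muscle and epidermis. PAL-1, a caudal-type homeodomain protein, specifies C and acts above the muscle regulators HLH-1 (the MyoD homologue), UNC-120 (related to serum response factor) and HND-1 (a Hand bHLH factor), and above the epidermal GATA factors ELT-1 and ELT-3. The rule behind the comparison describes it as the step at which C-like cells become muscle and epidermis. In pooled embryos fewer cells of a type and less RNA per cell cannot be told apart.

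Values are log2 levels as deposited, 1 per probe set and array. A change is the mean at 186 min minus the mean at 83 min, with the standard error (SE) from limma, a linear model fitted to all probe sets and all 40 groups of genotype and time. A change was called where its adjusted p (Benjamini-Hochberg over 22548 probe sets) lay under 0.05 and its size reached 2-fold, that is 1 on the log2 scale, and only called changes are said to rise or fall. The labels do not say whether replicates were separate collections of embryos, so that p-values refer only to the spread between the arrays at hand, which may be technical. With 4 arrays a group, the number of arrays limits the precision.

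Several arrays stood apart. The description file of replicate 5 at 186 min notes 143 min as its time, whereas the label says 186. Replicate 5 at 83 min was hybridised with 0.7 µg against 1 µg for the other 7. Replicate 7 at 186 min lay at least 1.5 log2 units above each of the other 3 arrays of its group for 45 probe sets, against 1 for replicate 5 and 0 for replicates 6 and 8. Replicate 7 at 83 min lay as far below its group for 36 probe sets. All 8 arrays shared 1 scan day and 1 chip lot. The pools held 43 to 60 embryos at 186 min and 54 to 75 at 83 min, so pool size moved with age and its part in the results was not tested. The GAPDH 3' minus 5' probe difference, a sign of RNA length, was 1.36 ± 0.41 at 186 min and 1.14 ± 0.09 at 83 min (SD, n = 4 each, exact permutation p = 0.371, smallest possible 0.0286). Replicate 5 at 186 min was low, at 0.77. Replicates 6 to 8, at 1.72, 1.47 and 1.47, lay above all arrays at 83 min (1.04 to 1.24), and the part of RNA length in the results was not settled. Correlations between arrays over all probe sets were 0.972 to 0.986 within 186 min, 0.950 to 0.986 within 83 min and 0.860 to 0.903 between the times.

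The targeted genes were read first. The mex-3 probe set measured 3.90, 3.63, 6.36 and 3.84 in replicates 5 to 8 at 186 min, against 3.79, 3.84, 3.20 and 3.72 at 83 min. Replicate 7 at 186 min alone was high. The change was 0.80 ± 0.52 and was not called (adjusted p = 0.407), and without that array it was 0.16 (adjusted p = 0.954). That array also lay above the N2 arrays at 186 min (4.31 to 5.09). Another mex-3 probe set measured 3.88, 3.62, 3.73 and 3.59 at 186 min, against 3.04, 3.32, 3.41 and 3.36 at 83 min, so that replicate 7 did not stand apart there, and it averaged 4.23 and 5.16 in N2. The skn-1 transcript measured 3.87, 4.07, 3.82 and 3.98 at 186 min, against 3.86, 3.25, 4.19 and 3.59 at 83 min, with overlapping groups and no call. In N2 it averaged 3.73 and 3.65, no higher than here, so that its level does not check the RNAi label. The pal-1 transcript measured 8.36, 8.42, 8.13 and 8.44 at 186 min, against 7.80, 7.98, 7.67 and 8.06 at 83 min. The groups did not overlap, yet the change of 0.46 ± 0.79 was not called (adjusted p = 0.854), the SE being that of all arrays of the series.

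Of 22548 probe sets, 1123 rose (4.98%) and 797 fell (3.53%), together 1920 (8.52%). The 4 arrays of 186 min did not overlap the 4 of 83 min for 4369 probe sets (19.4%), of which 2580 were higher at 186 min (11.4%) and 1789 lower (7.93%). Counted by gene through the brightest probe set, 868 of 17118 genes rose (5.07%) and 636 fell (3.72%). Those gene shares are the background for the counts of listed genes below. The strongest rises included genes of collagens, apical matrix proteins and metabolic enzymes, and the strongest falls included genes first transcribed in the early embryo.

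The largest rise by the probe set named was in sqt-3, which encodes a cuticle collagen. It measured 9.20, 9.80, 10.57 and 9.59 at 186 min, against 2.79, 5.16, 4.06 and 3.23 at 83 min, a change of 5.98 ± 0.36 (adjusted p = 9.39e-26). All arrays at 186 min lay far above the highest at 83 min, which was replicate 6. The brightest sqt-3 probe set rose by 3.82 ± 0.22. The collagen gene dpy-14 measured 8.27, 8.82, 8.71 and 8.15 at 186 min, against 2.57, 2.94, 2.85 and 2.81 at 83 min, a change of 5.69 ± 0.31 (adjusted p = 1.39e-28). The collagen gene dpy-17 measured 9.04, 9.06, 9.32 and 8.88 at 186 min, against 3.59, 5.42, 3.83 and 4.29 at 83 min, a change of 4.79 ± 0.43. Neither gene's groups overlapped, and for dpy-17 replicate 6 was again the highest at 83 min.

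Genes of extracellular matrix proteins on the epidermal side rose as well. The gene noah-1, which encodes a zona pellucida protein of the embryonic apical matrix, measured 8.39, 8.38, 9.12 and 8.50 at 186 min, against 3.98, 4.74, 4.39 and 3.35 at 83 min, a change of 4.48 ± 0.34. The gene sym-1, which encodes a secreted leucine-rich repeat protein, measured 8.51, 8.12, 7.68 and 8.11 at 186 min, against 2.88, 3.38, 3.08 and 3.04 at 83 min, a change of 5.01 ± 0.24. Levels at 186 min were high in every array for these genes. Enzyme genes were also among the 15 largest rises. The gene pmt-2, which encodes a phosphoethanolamine methyltransferase of phosphatidylcholine synthesis, rose by 5.89 ± 0.37, and kynu-1, which encodes the tryptophan-degrading enzyme kynureninase, by 4.96 ± 0.28. The gene dsl-3, of the Delta/Serrate/LAG-2 ligand family, rose by 5.22 ± 0.23, and txdc-12.1, of the thioredoxin domain family, by 5.27 ± 0.22. The others were dbd-2 (5.28), the zinc finger gene somi-1 (4.46), clec-196 (4.21), F43G6.4 (4.19), the bZIP gene zip-8 (4.19) and hlh-1.

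The largest fall was in F56A8.8, at 3.13, 2.94, 3.17 and 2.92 at 186 min, against 9.73, 9.54, 9.70 and 9.54 at 83 min. Its change was -6.59 ± 0.35 (adjusted p = 2.15e-29), and another probe set for it gave -4.69. The gene EEED8.12 measured 4.47, 4.34, 4.04 and 4.31 at 186 min, against 10.01, 9.91, 9.34 and 9.80 at 83 min, a change of -5.47 ± 0.25. For both genes the 4 arrays of each time lay close together and far from the other time. The early zygotic gene pes-10 measured 3.08, 2.94, 2.90 and 3.10 at 186 min, against 7.71, 8.08, 6.44 and 8.34 at 83 min, a change of -4.64 ± 0.34. Replicate 7 was the lowest at 83 min there and still lay far above all arrays at 186 min. The very early transcripts vet-6, vet-2 and vet-1 fell by 4.54, 4.41 and 4.38, and dsl-1, another Delta-like ligand gene, by 4.60. The gene sip-1 encodes a small heat-shock protein of oocytes and embryos. It measured 7.53, 6.94, 6.31 and 5.73 at 186 min, against 11.04, 11.01, 11.18 and 11.33 at 83 min, a change of -4.51 ± 0.41. The gene sepa-1, whose product targets P granule proteins to autophagy, fell by 4.44. The remaining falls were in Y25C1A.6 (-4.58), F56F4.8 (-4.44), ZC239.20 (-4.35) and Y51H7C.3 (-4.35).

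**Figure D1:**
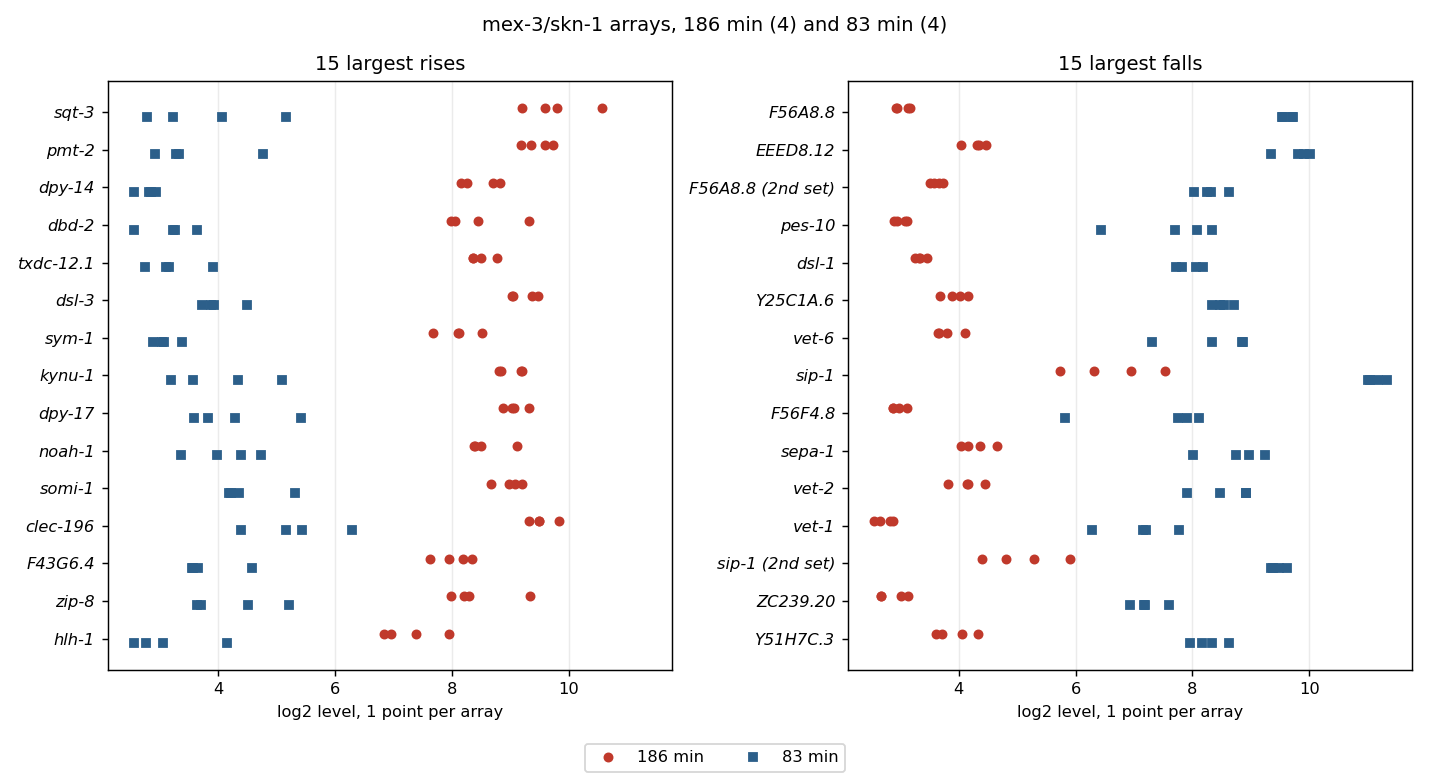
Log2 level in each of the 4 mex-3/skn-1 arrays at 186 min (red circles) and the 4 at 83 min (blue squares) for the 15 largest rises and the 15 largest falls. By the rule that chose them, no array of 1 time overlaps those of the other. The widest spread at 83 min among the rises is that of sqt-3, from 2.79 to 5.16.

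Of 11 regulators of muscle, 4 rose, 0 fell and 7 were not called, with a median change of 0.45 against -0.01 over all genes. The gene hlh-1 measured 7.95, 6.96, 6.84 and 7.39 at 186 min, against 2.56, 4.15, 3.05 and 2.76 at 83 min. Its change was 4.15 ± 0.23 (adjusted p = 1.32e-27). The groups were well apart, with replicate 6 the highest at 83 min. The gene unc-120 measured 7.70, 7.63, 7.28 and 7.57 at 186 min, against 3.50, 4.97, 3.31 and 3.95 at 83 min, a change of 3.61 ± 0.29 (adjusted p = 5.45e-19). The gene hnd-1 measured 8.02, 8.10, 7.46 and 7.47 at 186 min, against 5.31, 6.16, 5.42 and 6.14 at 83 min, a change of 2.01 ± 0.35 (adjusted p = 4.12e-06). The T-box gene tbx-8, which acts in posterior body shape, measured 6.06, 5.04, 5.29 and 5.34 at 186 min, against 3.56, 4.75, 3.85 and 4.56 at 83 min, a change of 1.25 ± 0.25. Its groups came close but did not overlap. The 7 that were not called were the T-box gene tbx-9 (-0.56), the Hox gene mab-5 (0.46), the TEF-family gene egl-44 (0.45), mls-1 (0.30), the Twist homologue hlh-8 (0.17), the Six-family gene unc-39 (0.14) and ceh-24 (-0.01), of which hlh-8, mls-1 and ceh-24 are known for later, non-striated muscles.

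Of 14 regulators of epidermis, 4 rose, 1 fell and 9 were not called, with a median change of 0.23. The zinc finger gene lin-26, needed for epidermal fate, measured 9.14, 9.27, 9.29 and 9.55 at 186 min, against 5.58, 6.41, 5.27 and 5.93 at 83 min, a change of 3.52 ± 0.24 (adjusted p = 7.06e-23). The nuclear receptor gene nhr-25 measured 6.59, 6.26, 6.70 and 6.62 at 186 min, against 3.60, 3.84, 3.99 and 3.35 at 83 min, a change of 2.84 ± 0.24. The GATA factor gene elt-3 measured 4.70, 5.46, 5.33 and 4.88 at 186 min, against 2.94, 2.76, 3.08 and 2.92 at 83 min, a change of 2.17 ± 0.17. None of these 3 genes had overlapping groups. Another probe set was called for lin-26 (2.75), and those for nhr-25 (0.70) and elt-3 (0.66) were not.

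The gene lir-1, a relative of lin-26, rose by 1.26 ± 0.39 (adjusted p = 0.014), a call lost without replicate 5 at 186 min (1.05), without replicate 5 at 83 min (1.10) or without replicate 7 at 83 min (1.12). The nuclear receptor gene nhr-2 fell by 1.11 ± 0.26, and its change was -0.997 without replicate 5 at 83 min, below the 2-fold minimum. The gene elt-1, which specifies epidermis, measured 7.42, 6.399, 6.38 and 6.94 at 186 min, against 4.72, 6.67, 5.71 and 6.41 at 83 min. These groups overlapped, and the change of 0.91 ± 0.38 was not called (adjusted p = 0.109). Without replicate 6 at 83 min it was 1.17 and was called (adjusted p = 0.0375). The changes of egl-18, elt-6, nhr-23, ceh-16, grh-1, lin-1, blmp-1 and dsc-1 lay between -0.34 and 0.25 and were not called.

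A list of 17 genes of the posterior C lineage held 8 that rose and 0 that fell, with a median change of 1.02. It shares hlh-1, unc-120, hnd-1, tbx-8, lin-26, elt-3 and nhr-25 with the regulators above, and some of its genes are known as PAL-1 targets from work on these very embryos, so the list is not independent evidence of its direction. The eighth riser was nob-1, a posterior Hox gene. It measured 7.42, 7.13, 7.86 and 7.73 at 186 min, against 3.47, 3.70, 3.25 and 3.42 at 83 min, a change of 4.07 ± 0.31 (adjusted p = 4.73e-20). Its neighbour and paralogue php-3 had a change of 0.54 ± 0.12 (adjusted p = 0.000199), below the 2-fold minimum. The Wnt gene cwn-1 measured 8.59, 8.42, 7.89 and 7.99 at 186 min, against 6.96, 7.35, 6.68 and 7.82 at 83 min. The groups came close but did not overlap. The change of 1.02 ± 0.79 was not called (adjusted p = 0.532) and was called when only the 8 arrays were fitted (adjusted p = 0.0185), since the larger fit takes its spread from all arrays. The even-skipped homologue vab-7 (0.38), the snail-family gene scrt-1 (-0.49) and the Hox gene egl-5 (-0.03) were not called.

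**Figure D2:**
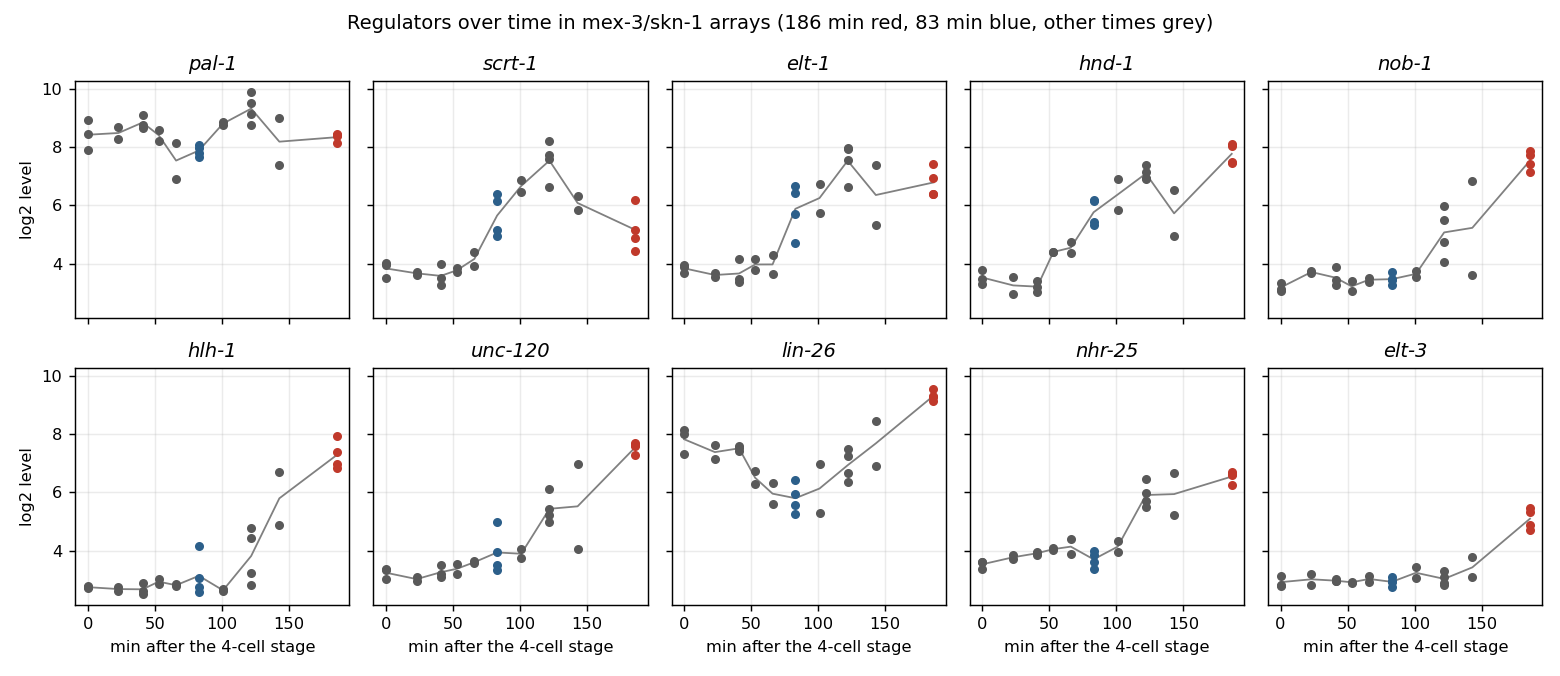
Log2 level of 10 regulators in all 28 mex-3/skn-1 arrays against minutes after the 4-cell stage, with 186 min in red, 83 min in blue and other times in grey. Lines join the means of each time. For hlh-1, unc-120, nob-1, lin-26, nhr-25, elt-3 and hnd-1 the highest mean is at 186 min, and for pal-1, scrt-1 and elt-1 it is at 122 min.

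The intermediate times separated these regulators. The mean of scrt-1 was 4.16 at 66 min, 5.65 at 83 min, 7.53 at 122 min and 5.15 at 186 min. The mean of elt-1 was 3.97 at 66 min, 5.88 at 83 min, 7.53 at 122 min and 6.78 at 186 min. Between 122 and 186 min the change of scrt-1 was -2.38 ± 0.23 (adjusted p = 9.33e-15). That of elt-1 was -0.75 ± 0.38 and was not called (adjusted p = 0.172), with overlapping arrays. The mean of hnd-1 was 4.54 at 66 min, 5.76 at 83 min, 7.09 at 122 min, 5.72 at 143 min and 7.76 at 186 min. That of hlh-1 was 2.81, 3.13, 3.81, 5.79 and 7.29 at the same times, so most of its change came after 122 min. The mean of lin-26 was 7.82 at 0 min, 5.80 at 83 min and 9.31 at 186 min, so that 83 min was its lowest point. The gene elt-3 was at 3.03 at 122 min and at 3.42 at 143 min, close to its 2.92 at 83 min. The 2 arrays at 143 min differed widely from each other for several of these genes, with hlh-1 at 4.89 and 6.69.

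Among structural muscle genes the shares called were near those over all genes (5.07% rose and 3.72% fell). Of 51 measured genes of the sarcomere and of muscle function, 4 rose, 2 fell and 45 were not called, with a median change of 0.06. The defining genes unc-54 (-0.08), myo-3 (0.52), unc-15 (0.28), unc-89 (-0.13), pat-10 (0.67) and mup-2 (0.53), which encode myosin heavy chains, paramyosin, a giant kinase of the M-line and troponins, were not called. Replicate 7 at 186 min set the values of the troponin genes, and without it they were -0.26 for pat-10 and 0.13 for mup-2. Another pat-10 probe set was called (1.26), and without that array its change was 0.11 (adjusted p = 0.927). The actin gene act-4 measured 8.01, 8.14, 8.83 and 8.34 at 186 min, against 4.45, 5.60, 5.13 and 4.58 at 83 min, a change of 3.39 ± 0.36. The gene ketn-1, which encodes the titin-related protein kettin, measured 6.99, 7.16, 7.43 and 6.96 at 186 min, against 5.08, 5.34, 4.70 and 4.62 at 83 min, a change of 2.199 ± 0.27. Both were well apart, as was the troponin I gene unc-27 (1.23 ± 0.16). The actin gene act-3 fell by 1.94 ± 0.26. Actin genes are near-identical copies, so their probe sets may share signal. The other fall, picked after its value was seen, was in the calponin-like gene cpn-1 (-1.25).

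The fourth riser, the myosin light chain gene mlc-2, rested on 1 array. It measured 3.92, 3.80, 6.30 and 4.05 at 186 min, against 3.33, 3.65, 3.38 and 3.39 at 83 min. The change of 1.08 ± 0.21 was 0.48 without replicate 7 at 186 min, below the 2-fold minimum. Over the whole list the mean log2 level was 4.35 in that array, 3.77 to 3.83 in the other 3 at 186 min and 3.72 to 3.79 at 83 min. Among the 45 probe sets in which that array lay highest were 7 genes of this list, 4 of the basement membrane and 3 of the cuticle list, and they are described under the other observations.

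Of 21 genes of dense bodies and muscle attachment, the integrin-based anchors of the muscle cell, 5 rose and 0 fell, with a median change of 0.12. The talin gene tln-1 measured 4.65, 5.36, 6.03 and 5.26 at 186 min, against 3.27, 3.13, 3.15 and 3.01 at 83 min, a change of 2.18 ± 0.27. None of the other tln-1 probe sets, which were dimmer, was called, with changes from -0.08 to 0.695. The integrin-linked kinase gene pat-4 measured 6.46, 6.62, 6.51 and 6.86 at 186 min, against 4.15, 5.22, 4.40 and 4.73 at 83 min, a change of 1.99 ± 0.25. The LIM-domain gene unc-97 rose by 1.59 ± 0.21. The remaining calls depended on single arrays. The parvin gene pat-6 rose by 1.09 ± 0.29, and by 0.93 without replicate 5 at 186 min and 0.86 without replicate 7 at 83 min. The kindlin gene unc-112 rose by 1.08 ± 0.31, and had a change of 0.73 without replicate 7 at 83 min (adjusted p = 0.146). All of these are below the 2-fold minimum.

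The basement membrane is the matrix around muscle. Of 20 basement membrane genes 7 rose and 0 fell, with a median change of 0.61. The laminin alpha gene epi-1 measured 8.29, 8.64, 8.31 and 8.05 at 186 min, against 4.42, 5.599, 3.90 and 5.27 at 83 min, a change of 3.53 ± 0.35. The laminin beta gene lam-1 measured 7.18, 7.82, 8.05 and 7.87 at 186 min, against 5.50, 5.43, 4.84 and 5.51 at 83 min, a change of 2.41 ± 0.31. Both laminin genes were higher in every array at 186 min. The peroxidasin gene pxn-2 (1.71 ± 0.16), the F-spondin gene spon-1 (1.72 ± 0.19) and the teneurin gene ten-1 (1.66 ± 0.23) rose less. Other probe sets were not called for lam-1 (0.87) and ten-1 (0.54 and 0.11). For epi-1 the mean was 4.34 at 66 min, 4.80 at 83 min, 8.25 at 122 min and 8.32 at 186 min, so that its change lay almost wholly before 122 min. Its rise between 66 and 122 min, in arrays not used at 83 or 186 min, was 3.92 ± 0.43 (adjusted p = 2.31e-11).

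Of 25 genes of epithelial junctions and their cytoskeleton 9 rose and 0 fell, with a median change of 0.73. The gene dlg-1, which encodes the Discs large scaffold of the apical junction, measured 7.79, 8.28, 8.83 and 7.81 at 186 min, against 4.39, 5.30, 5.29 and 4.64 at 83 min, a change of 3.27 ± 0.32. Its groups were well apart, and another dlg-1 probe set was not called (0.61). Its junction partner ajm-1 had a change of 0.79, and let-413, the Scribble homologue, of 0.75, both below the minimum. The innexin genes inx-12 (1.65 ± 0.20) and inx-13 (1.06 ± 0.16), the Patched-related gene ptc-3 (1.26 ± 0.16) and the beta-spectrin gene unc-70 (1.43 ± 0.22) rose. For inx-13 the change was 0.995 without replicate 7 at 186 min.

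Of 52 genes of the cuticle and apical matrix 13 rose, 1 fell and 38 were not called, with a median change of 0.16. Besides dpy-14, dpy-17, noah-1, sym-1 and sqt-3 already described, wrt-10, a hedgehog-related gene, measured 7.83, 7.31, 7.89 and 7.41 at 186 min, against 3.33, 4.00, 3.48 and 3.46 at 83 min. Its change was 4.04 ± 0.22 with clearly separate groups. The collagen gene dpy-7 had a change of 0.96 and was not called, and without replicate 7 at 186 min its change was 0.32. Without replicate 7 at 186 min 10 of the list rose. Of 16 enzymes that process collagen 5 rose and 1 fell. The lysyl hydroxylase gene let-268 measured 6.68, 6.71, 6.10 and 6.00 at 186 min, against 3.65, 3.96, 3.85 and 4.22 at 83 min, a change of 2.45 ± 0.15, and the prolyl hydroxylase subunit gene dpy-18 rose by 2.05 ± 0.31. The others that rose were pdi-2 (1.57 ± 0.47), cht-1 (1.32 ± 0.24) and, picked after its value was seen, crt-1 (1.27). The call on pdi-2, a protein disulphide isomerase gene, was lost without replicate 5 (adjusted p = 0.065) or replicate 7 (adjusted p = 0.0507) at 83 min, and the list then had 3 genes that rose in either case. The proprotein convertase gene bli-4 fell by 1.40 ± 0.24 and stands in both lists, and 4 of its other 8 probe sets were not called, with changes from -0.03 to 0.07. Of 29 genes of epidermal fusion and morphogenesis 2 rose and 0 fell. These were kal-1 (2.65 ± 0.26), the anosmin homologue, and the Rac-like gene mig-2 (1.08 ± 0.30), whose call was lost without replicate 7 at 83 min (0.86).

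**Figure D3:**
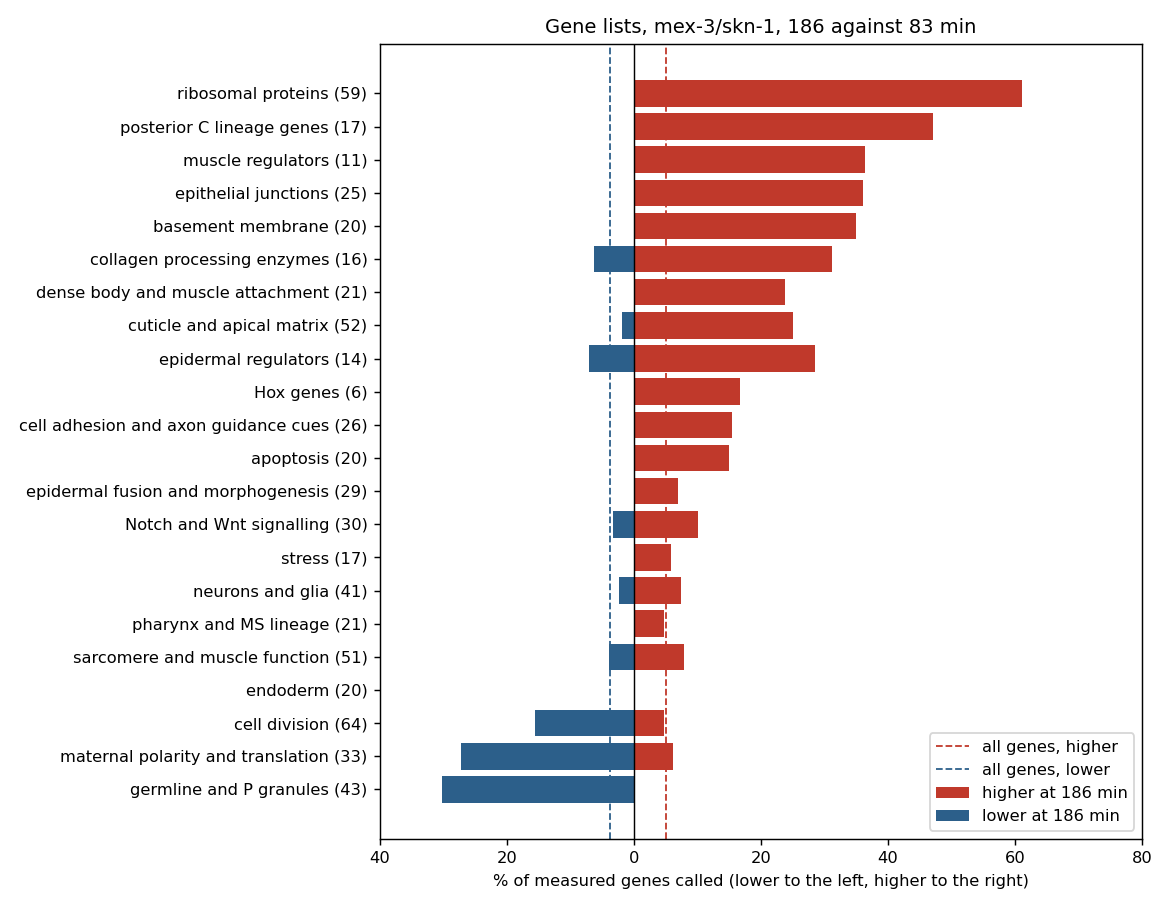
Share of the measured genes of each list that rose (right, red) or fell (left, blue) in mex-3/skn-1 embryos at 186 min against 83 min, with the number measured in brackets. Dashed lines give the shares over all 17118 genes, 5.07% higher and 3.72% lower. Ribosomal protein genes have the longest bar to the right, and germline genes the longest to the left.

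Lists of tissues outside body-wall muscle and epidermis were also counted, beside the 5.07% that rose over all genes. Of 20 measured endoderm genes 0 rose and 0 fell by limma, and at 186 min their mean log2 level was 3.43 to 3.57, against 3.42 to 3.64 at 83 min. At an unadjusted p under 0.05, 1 of them differed, and at an adjusted p under 0.05 without the fold minimum, 1 did. The GATA factor gene elt-2, the main regulator of gut identity, had a change of 0.55 (adjusted p = 0.033), and ges-1, the gut esterase gene, of -0.04. Of 21 genes of the pharynx and the MS lineage 1 rose, the Iroquois gene irx-1 (1.68 ± 0.24), and 0 fell. The pharyngeal organ identity gene pha-4 (-0.27), the NK-2 gene ceh-22 (0.03) and the pharyngeal myosin genes myo-2 (0.10) and myo-1 (-0.01) were not called. Their list's mean log2 level was 3.49 to 3.63 at 186 min, against 3.37 to 3.55 at 83 min.

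Of 41 genes of neurons and glia 3 rose and 1 fell. Of these, lin-26 is also an epidermal gene. The proneural gene hlh-14 measured 6.16, 6.52, 6.62 and 5.85 at 186 min, against 3.54, 4.42, 3.52 and 3.47 at 83 min, a change of 2.55 ± 0.30. The C lineage makes a few neurons in the wild type, and whether such cells account for this change was not tested. At 186 min hlh-14 averaged 6.29 here, against 6.62 (N2), 7.16 (pie-1) and 7.17 (pie-1/pal-1). The averages at 83 min were 3.74, 5.12, 6.07 and 6.22 in the same order. The touch neuron tubulin gene mec-7 rose by 1.46 ± 0.20, and the proneural gene hlh-3 fell by 1.17 ± 0.21. The markers unc-86, snt-1, lin-32, rab-3 and egl-3 had changes from -0.33 to 0.03 and were not called. Of 6 Hox genes 1, nob-1, was called. Of 26 genes of cell adhesion and axon guidance 4 rose and 0 fell. These were the netrin receptor gene unc-5 (2.16 ± 0.30), the lamellipodin homologue mig-10 (1.58 ± 0.26), the zinc finger gene sma-9 (1.58 ± 0.29) and the receptor phosphatase gene clr-1 (1.32 ± 0.26). Other probe sets were not called for mig-10 (-0.02 and -0.10) and clr-1 (0.83). Of 30 genes of Notch and Wnt signalling 3 rose, namely the Frizzled genes mig-1 (1.42 ± 0.19) and lin-17 (1.503 ± 0.27) and the Ror gene cam-1 (1.73 ± 0.26), and dsl-1 fell. That list had 5 genes that rose without replicate 7 at 186 min. Another cam-1 probe set was not called (0.765).

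Among maternal and germline transcripts more members fell than rose. Of 43 germline and P granule genes 0 rose, 13 fell and 30 were not called, with a median change of -0.69 and a highest of 0.62. The genes named here are those that fell with the smallest adjusted p, so they do not stand for the list. The gene pos-1, a zinc finger gene of the germline blastomeres, measured 6.12, 6.29, 5.28 and 4.88 at 186 min, against 8.58, 8.44, 7.96 and 8.802 at 83 min, a change of -2.81 ± 0.37. The Bicaudal-C relative gld-3 (-1.69 ± 0.26), the P granule gene meg-1 (-1.58 ± 0.26), the nanos homologue nos-2 (-1.51 ± 0.29) and the helicase gene glh-4 (-1.39 ± 0.25) also fell. Other gld-3 probe sets were not called (-0.58 and -0.03). For meg-1 another was called (-1.575) and a further one was not (-0.48). Of 33 maternal genes of polarity, eggshell and translation 2 rose and 9 fell. The eggshell chondroitin proteoglycan genes cpg-3 and cpg-2 fell by 3.29 ± 0.23 and 2.81 ± 0.43. For cpg-3 the mean was 8.90 at 83 min and 5.62 at 186 min. N2 did not share this fall, with a cpg-3 change of 0.21 (not called, adjusted p = 0.783), and the pie-1/pal-1 change was 0.02. The source of that difference was not tested. The eggshell gene egg-2 fell by 1.61 ± 0.26, while the RNA-binding protein gene etr-1, an ELAV-type family member, rose by 1.51 ± 0.28. The cpg-2 values at 186 min, 7.05, 6.33, 4.87 and 5.19, were widely spread but stayed below the 8.18 to 9.41 at 83 min.

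Of 64 cell division genes 3 rose and 10 fell, with a median change of -0.39. The cyclin-dependent kinase inhibitor gene cki-1, which stops the cell cycle, measured 6.76, 5.93, 6.41 and 6.38 at 186 min, against 3.56, 3.75, 3.66 and 3.72 at 83 min, a change of 2.70 ± 0.22. It rose while the cyclin B gene cyb-1 (-1.51 ± 0.17), the phosphatase gene cdc-25.3 (-1.89 ± 0.32) and the replication helicase gene mcm-3 (-1.04 ± 0.18) fell, and cdc-25.2 rose by 1.61 ± 0.29. Another cdc-25.2 probe set had a change of -0.03 and was not called. The call on mcm-3 was lost without replicate 5 at 186 min (-0.992) and with quantile normalization (-0.917). The cki-1 mean was 3.67 at 122 min and 3.82 at 143 min, so that its change came last. The count of falls depended on the arrays. It was 15 without replicate 5 at 186 min, 14 without replicate 5 at 83 min and 17 without replicate 7 at 83 min. Ribosomal protein genes stood at the other end. Of 59 measured genes 36 rose and 0 fell, with a median change of 1.09, and rpl-11.2 rose by 2.44 ± 0.31. Their mean log2 level was 9.57 to 9.83 at 186 min, against 8.42 to 8.76 at 83 min. In N2, 37 of the 59 rose and 1 fell, and by the limma test of the difference none of the 59 was called. Of 20 apoptosis genes 3 rose, the engulfment adaptor gene ced-6 (1.29 ± 0.21) and the nuclease genes nuc-1 (1.35 ± 0.30) and cps-6 (1.10 ± 0.20), the last below the minimum without replicate 7 at 83 min (0.96). Of the 17 measured genes of the list drawn up for stress 1 rose, gpd-2 (1.02 ± 0.22), near the 5.07% over all genes. Its call was lost without replicate 5 at either time or replicate 7 at 83 min.

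The change took place in steps that share arrays, so their counts are only set side by side. Between 83 and 122 min 363 probe sets rose (1.61%) and 777 fell (3.45%), and between 122 and 186 min 991 rose (4.40%) and 354 fell (1.57%). The probe sets called higher at 186 min had reached a median of -1.28% of their change at 101 min, 23.2% at 122 min and 23.6% at 143 min. Those called lower had reached 35.1%, 67.7% and 111% at the same times. These shares describe probe sets chosen by their change and share the 83 and 186 min arrays with it. The 2 arrays at 143 min differed, with the probe sets called higher on average 0.94 and -0.04 from their 83 min mean. Replicate 5 at 186 min, which has the note of 143 min, had the highest such mean of its group (1.80, against 1.51 to 1.64) and the smallest fall over the probe sets called lower (-1.63, against -1.84 to -1.91). That array took part in the choice of these probe sets.

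**Figure D4:**
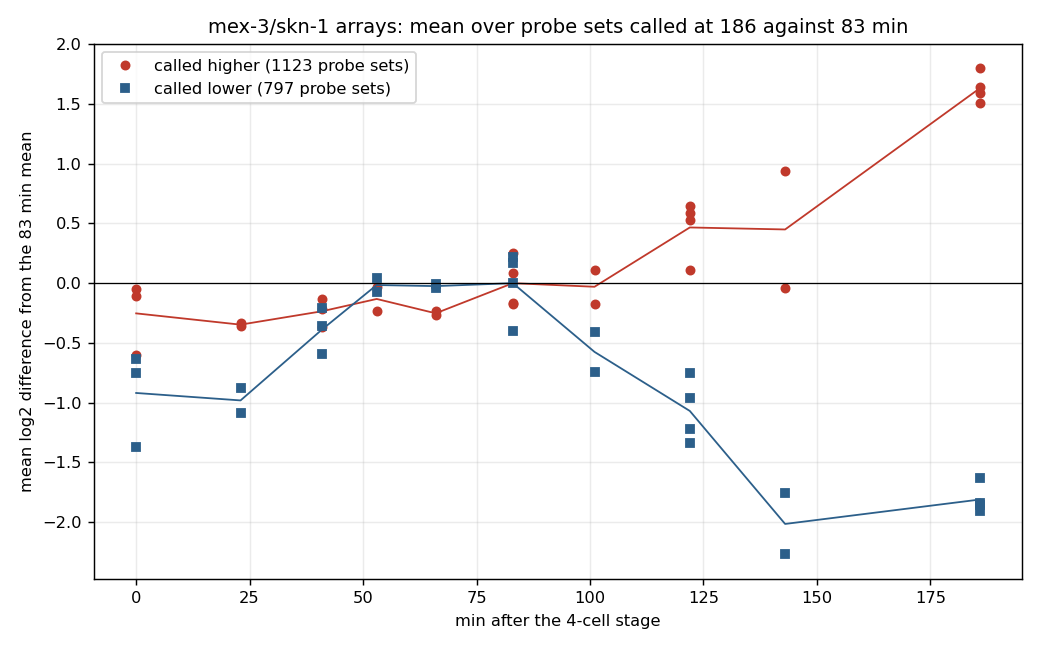
Mean log2 difference from the 83 min mean, in each of the 28 mex-3/skn-1 arrays, over the 1123 probe sets called higher (red circles) and the 797 called lower (blue squares) at 186 min. Lines join the means of each time, and the values at 83 and 186 min are set by the choice of probe sets. At 143 min the 2 arrays stand at -1.76 and -2.27 for the falls, and at 0.94 and -0.04 for the rises.

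Arrays of the same genotype that the comparison did not use covered an earlier window. Between 66 min (2 arrays) and 122 min (4 arrays) 530 probe sets rose (2.35%) and 810 fell (3.59%). Of the 1123 called higher at 186 min, 302 also rose there, which is 26.9% of the 1123 and 57.0% of the 530, and 3 fell. Of the 797 called lower, 389 also fell there, 48.8% of them and 48.0% of the 810, and 17 rose. Among the regulators, unc-120 rose by 1.83 ± 0.35, nhr-25 by 1.77 ± 0.29, nob-1 by 1.62 ± 0.38 and hlh-1 by 1.00 ± 0.29 (adjusted p = 0.0138), whereas elt-3 had a change of 0.00 ± 0.21. In that window the median of 3792 brighter probe sets (mean of at least 5) was -0.13. With arrays centred on them 808 rose and 656 fell, so that 55.2% of calls were rises against 39.6%.

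Whether a change differed from that in N2 was tested as the change of mex-3/skn-1 minus the change of N2. The times were the same and the arrays are not shared. What caused a difference was not tested. Of 22548 probe sets 377 (1.67%) had a more positive change in mex-3/skn-1 and 231 (1.02%) a more negative one, together 608 (2.70%). The median difference of the brighter probe sets was 0.16, and with arrays centred on them the counts were 304 and 319, that is 48.8% more positive against 62.0%. Many changes were common to both. Of the 1123 that rose in mex-3/skn-1, 575 rose in N2 (51.2% of these and 62.6% of the 918 of N2, background 4.07%). Of the 797 that fell, 608 fell in N2 (76.3%, and 54.97% of the 1106 of N2, background 4.91%). Of the 1123, 143 had a more positive change than in N2 and 11 a less positive one. The 1123 were chosen by their change in mex-3/skn-1, which is part of that difference. This split is therefore partly set by the choice, and the shares over all probe sets are the 1.67% and 1.02% above.

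Of the 11 muscle regulators, 3 had a more positive change than in N2 and 1 a more negative one. The gene hnd-1 averaged 7.76 at 186 min and 5.76 at 83 min in mex-3/skn-1, and 6.44 and 6.52 in N2, a difference of changes of 2.09 ± 0.52 (adjusted p = 0.0067). For hlh-1, at 7.29 and 3.13 in mex-3/skn-1 and 6.17 and 3.23 in N2, the difference was 1.22 (adjusted p = 0.0253), and for tbx-8 it was 1.33 (adjusted p = 0.0164). The calls on hlh-1 and tbx-8 were lost with centring on the brighter probe sets (adjusted p = 0.0754 and 0.0523), and also without replicate 5 at 186 min (adjusted p = 0.127 and 0.0825) or at 83 min (adjusted p = 0.123 and 0.0878). For elt-3 the difference was 1.31 (adjusted p = 0.000119), and the call held in those settings. For unc-120, lin-26, nhr-25 and nob-1 it lay between 0.69 and 1.20 and was not called by the probe sets described above. Another nob-1 probe set was called (1.59, adjusted p = 3e-06), and another for elt-3 was not (0.45). The gene unc-39, which acts in anterior mesoderm, averaged 3.74 and 3.61 in mex-3/skn-1 and 6.24 and 3.53 in N2, a difference of -2.57 (adjusted p = 5.04e-09).

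Of the matrix genes, dpy-17 averaged 9.07 and 4.28 in mex-3/skn-1 and 8.35 and 7.36 in N2, a difference of 3.79 (adjusted p = 6.28e-06). N2 was already high at 83 min. The differences for noah-1 (2.82), dpy-14 (2.098) and the laminin gene epi-1 (2.13) were called too. At 186 min noah-1 averaged 8.60 in mex-3/skn-1 and 8.46 in N2, and epi-1 averaged 8.32 and 8.60. At 83 min noah-1 averaged 4.115 and 6.80, and epi-1 4.80 and 7.20, so N2 was already higher then. For dpy-14 the averages were 8.49 and 2.79 in mex-3/skn-1, and 7.84 and 4.25 in N2. The call on the brightest sqt-3 probe set (1.38) was lost with quantile normalization (adjusted p = 0.135) and with centring on the brighter probe sets (adjusted p = 0.0642). The kettin gene ketn-1, at 7.14 and 4.94 in mex-3/skn-1 and 4.04 and 4.36 in N2, differed by 2.52 (adjusted p = 2.29e-06), and another probe set for it by 0.77, below the minimum.

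The largest positive difference was in ttc-36, which encodes a tetratricopeptide repeat protein. It measured 7.36, 7.13, 7.11 and 6.77 at 186 min in mex-3/skn-1, against 3.03, 4.34, 4.36 and 3.36 at 83 min. In N2 it averaged 5.05 at 186 min and 6.77 at 83 min, and the difference of changes was 5.04 (adjusted p = 2.83e-14). It rose by 3.32 ± 0.32 in mex-3/skn-1 while it fell in N2. The aldehyde dehydrogenase family gene alh-13 (3.72) had the same opposite directions, rising by 1.92 and falling by 1.80 in N2, and kynu-1 (3.59) rose in both. The acyl-CoA synthetase family gene acs-3 (3.71), C05D12.4 (3.56), the T-box gene tbx-38 (3.39) and the F-box gene fbxb-96 (3.34) were not called in mex-3/skn-1, with changes between -0.58 and 0.11, and fell by 3.28 to 4.14 in N2. For acs-3 the averages were 3.55 and 3.52 in mex-3/skn-1, and 3.70 and 7.38 in N2.

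On the negative side, the 8 probe sets with the largest differences stand for 7 genes. Of these, 6 were not called in mex-3/skn-1 and zip-7 rose less than in N2. The acyl-CoA dehydrogenase gene acdh-1 averaged 2.83 and 2.90 in mex-3/skn-1 and 8.17 and 2.85 in N2, a difference of -5.38 (adjusted p = 5.68e-24), and acdh-2 differed by 4.09 in the same direction. The SoxB gene sox-2, known for its part in neural progenitors, averaged 3.70 and 3.82 in mex-3/skn-1 and 7.04 and 3.60 in N2, a difference of -3.56. The others were T02E9.5 (-4.07), pnp-1 (-3.94 and -3.57 by 2 probe sets), the bZIP gene zip-7 (-3.64) and the zinc finger gene mnm-2 (-3.62). Markers of other tissues differed from N2 in both directions. Of 20 endoderm genes 2 had a more positive change and 3 a more negative one, of 21 pharynx and MS genes 3 and 3, and of 41 genes of neurons and glia 3 and 4. The gut genes elt-2 and ges-1 rose in N2 by 2.54 and 1.38 and differed by -1.98 (adjusted p = 1.37e-07) and -1.41 (adjusted p = 2.37e-07). The proneural gene lin-32 rose in N2 by 2.32 and differed by -2.46 (adjusted p = 2.82e-08). For some regulators that fell in N2 the differences were positive. The MS lineage genes ceh-51 and tbx-37 and the endoderm gene end-1 fell in N2 by 3.79, 1.62 and 1.46. They were not called in mex-3/skn-1, with differences of 3.02, 1.43 and 1.57. In mex-3/skn-1 ceh-51 averaged 3.62 at 186 min and 4.39 at 83 min, tbx-37 2.81 and 3.00, and end-1 4.62 and 4.51. Their levels there were thus low at both times, and the differences come from the falls in N2. For pha-4 the difference was -1.22 (adjusted p = 0.0349), a call lost without replicate 7 or 8 at 186 min and without replicate 5 or 7 at 83 min (adjusted p from 0.071 to 0.131).

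**Figure D5:**
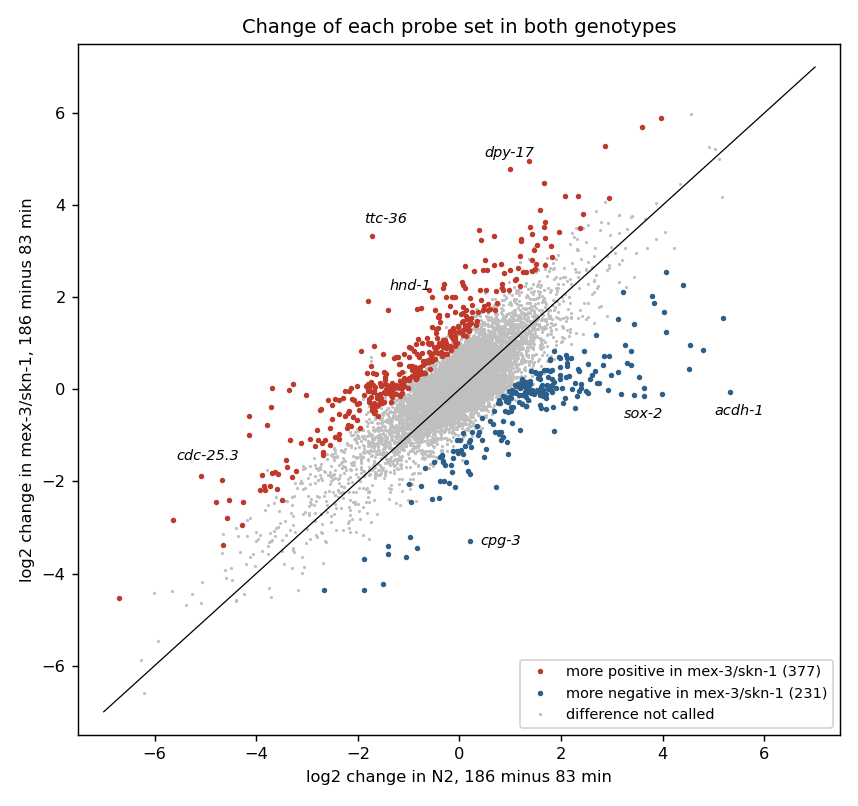
Log2 change from 83 to 186 min in mex-3/skn-1 (vertical) against the change in N2 (horizontal) for 22548 probe sets. Red marks the 377 with a more positive change in mex-3/skn-1, blue the 231 with a more negative one, grey the rest, and the line marks equal change. The blue points to the right at a vertical value near 0 rose in N2 and were not called in mex-3/skn-1.

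Against pie-1 embryos 509 probe sets (2.26%) had a more positive change in mex-3/skn-1 and 197 (0.874%) a more negative one, together 706 (3.13%). Against pie-1/pal-1 embryos the counts were 525 (2.33%) and 421 (1.87%), together 946 (4.20%). For pie-1 the median difference of the brighter probe sets was 0.21, and with centring on them the counts were 323 and 314 (50.7% more positive against 72.1%). These tests share the mex-3/skn-1 arrays with each other and with the test against N2. The largest positive difference was that of ttc-36, 6.71 from pie-1 and 8.09 from pie-1/pal-1, and the next that of dpy-17, 6.16 and 6.58. The change of dpy-17 was 4.79 in mex-3/skn-1. Embryos of pie-1 gave -1.37 for it (not called, adjusted p = 0.0972), and those of pie-1/pal-1 gave -1.79 (adjusted p = 0.00216). The sqt-3 probe set named above differed by 4.72 and 4.73. From pie-1, spp-10, a saposin-like gene, differed by 4.93, and from pie-1/pal-1, kynu-1 differed by 4.95. The muscle regulator hlh-1 rose by 4.15 in mex-3/skn-1, against a change of 0.06 for pie-1 embryos and of 0.83 for pie-1/pal-1 embryos, and the differences were 4.09 and 3.32.

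The most negative differences were again in genes not called in mex-3/skn-1. From pie-1 they were T02E9.5 (-4.62), pnp-1 (-4.01 and -3.52) and acs-7 (-3.61), an acyl-CoA synthetase family gene. From pie-1/pal-1 they were T02E9.5 (-5.62), sox-2 (-4.48), tir-1 (-4.15), the SARM1 homologue, and pnp-1 (-4.145). In mex-3/skn-1 the T02E9.5 probe set measured 3.60, 3.52, 3.87 and 3.06 at 186 min, against 3.15, 2.76, 3.48 and 2.87 at 83 min, with overlapping groups.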

How the data were processed

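Each array measured RNA of a pool of staged embryos, and the 8 arrays compared are described above. The authors deposited 1 table of log2 values, read as log2 from its range (1.79 to 12.72). The probe summary, background correction and normalization between arrays are not given in the sources used here, and the values were used as deposited. Array medians lay between 3.24 and 3.41. Of 22625 probe sets 77 controls were left out. Gene names came from the platform annotation, in which 20766 probe sets had 1 symbol, 887 several and 895 none, updated through RefSeq (20701 matched). A model with 40 group means was fitted to 123 arrays with limma 3.58.1 in R 4.3.3 (lmFit and eBayes, 83 residual and 4.8 prior degrees of freedom), and p-values were adjusted by Benjamini-Hochberg over 22548 probe sets. Changes in other genotypes were subtracted as contrasts of that fit. A called change needed an adjusted p under 0.05 and a log2 change of at least 1.

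The members and the 22 gene lists were chosen with earlier results of these data known. In lists the probe set with the highest mean over all arrays stood for a gene. Named were the 15 largest called rises and 15 falls with 1 symbol and arrays that did not overlap, up to 5 called members a list with the smallest adjusted p, all muscle, epidermal and posterior C lineage genes, the targeted genes, and the 8 largest differences each way from N2 and 4 each way from the other genotypes. Other list genes were named as tissue markers or after their values were seen. Of 103 named genes that were called, 50 had other probe sets, 26 of these agreed throughout, 24 had some not called and 0 were called the opposite way. Those 24 included bli-4, cam-1, cdc-25.2, clr-1, dlg-1, elt-3, etr-1, gld-3, ketn-1, lam-1, mcm-3 and meg-1. The rest of them were mig-10, mig-2, nhr-2, nhr-25, nob-1, pdi-2, spp-10, sym-1, ten-1, tln-1, unc-70 and zip-7. On simulated data, 96% of probe sets changed by 1.5 log2 units and 100% of those changed by 2 were recovered, with 1 false call among the probe sets left unchanged. The simulated noise was normal, independent between arrays and equal in all groups for a probe set. It held no arrays that stand apart as some do here, so the result covers only the model's own assumptions. Alternatives covered scaling, filtering, the prior variance, the arrays in the fit, a GAPDH term, the fold minimum, a replicate block and leaving out each array.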

Additional observations from a re-analysis of the deposited data

Results flagged for a closer look

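Of 286 groups of 4 arrays examined for the named probe sets, 14 (4.90%) held 1 array far from the other 3 by Dixon's criterion, which chance meets in about 1 of 20 groups. Replicate 5 at 186 min stood apart for pat-6 (6.87, others 6.23 to 6.29) and ced-6 (5.91, others 5.63 to 5.67). Replicate 7 at 186 min stood apart for noah-1 (9.12, others 8.38 to 8.50), mlc-2 (6.30, others 3.80 to 4.05) and mex-3 (6.36, others 3.63 to 3.90). Replicate 6 at 83 min stood apart for somi-1 (5.31, others 4.19 to 4.36), F43G6.4 (4.58, others 3.55 to 3.65) and hlh-14 (4.42, others 3.47 to 3.54). Replicate 7 at 83 min stood apart for F56F4.8 (5.83, others 7.75 to 8.12), pat-6 (4.62, others 5.53 to 5.59), lam-1 (4.84, others 5.43 to 5.51), meg-1 (4.81, others 5.64 to 5.70), rpl-14 (8.33, others 8.00 to 8.02) and cps-6 (3.61, others 4.14 to 4.18). The part of the arrays themselves in these values was not tested.

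The difference of changes between mex-3/skn-1 and another genotype was called for 58 of the named probe sets by limma. The change was more positive in mex-3/skn-1 than in N2 for pmt-2 (1.92), dpy-14 (2.098), dbd-2 (2.42), kynu-1 (3.59), dpy-17 (3.79), noah-1 (2.82), clec-196 (2.14), F43G6.4 (1.87), hlh-1 (1.22), vet-6 (2.16), hnd-1 (2.09), tbx-8 (1.33), elt-3 (1.31), nhr-2 (1.53), ketn-1 (2.52), epi-1 (2.13), sqt-3 (1.38), mec-7 (1.24), cdc-25.3 (3.19), ced-6 (1.22), cam-1 (2.21), egl-18 (2.16), ttc-36 (5.04), alh-13 (3.72), acs-3 (3.71), C05D12.4 (3.56), tbx-38 (3.39) and fbxb-96 (3.34). The change was more negative in mex-3/skn-1 than in N2 for ZC239.20 (-1.68), Y51H7C.3 (-2.48), cpg-3 (-3.50), unc-39 (-2.57), acdh-1 (-5.38), acdh-2 (-4.09), T02E9.5 (-4.07), pnp-1 (-3.94), zip-7 (-3.64), mnm-2 (-3.62), pnp-1 (-3.57), sox-2 (-3.56), acs-7 (-2.26) and tir-1 (-2.24). Against pie-1, the mex-3/skn-1 change was more positive for sqt-3 (4.72), dpy-17 (6.16), ttc-36 (6.71) and spp-10 (4.93). Against pie-1, the mex-3/skn-1 change was more negative for T02E9.5 (-4.62), pnp-1 (-4.01), pnp-1 (-3.52) and acs-7 (-3.61). Against pie-1/pal-1, the mex-3/skn-1 change was more positive for sqt-3 (4.73), kynu-1 (4.95), dpy-17 (6.58) and ttc-36 (8.09). Against pie-1/pal-1, the mex-3/skn-1 change was more negative for T02E9.5 (-5.62), pnp-1 (-4.145), sox-2 (-4.48) and tir-1 (-4.15). Where a gene appears more than once against 1 genotype, the values are of different probe sets. A more positive change than in N2 does not mean a higher level at 186 min. In mex-3/skn-1 and N2, pmt-2 averaged 9.47 and 9.53 at 186 min, and 3.57 and 5.56 at 83 min. For dbd-2 the averages were 8.45 and 8.645, and 3.17 and 5.78. By contrast, hlh-1 averaged 7.29 and 6.17 at 186 min, and 3.13 and 3.23 at 83 min. These are examples, and the other genes were not sorted this way.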

How the results depend on the processing

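Leaving out each array in turn gave 1004 to 1261 rises and 723 to 932 falls between 186 and 83 min. It gave 314 to 433 more positive and 199 to 245 more negative changes than N2, and 467 to 584 and 366 to 490 than pie-1/pal-1. Against pie-1 it gave 1.94 to 2.51% of probe sets tested as more positive and 0.772 to 0.971% as more negative. Without the fold minimum 2139 probe sets rose and 1403 fell. Centring on the brighter probe sets gave 323 more positive (1.43%) and 314 more negative (1.39%) changes than pie-1, and 808 rises between 66 and 122 min. Quantile normalization gave 343 more negative changes than pie-1 (1.52%). Without probe sets of a mean under 4 there were 133 more negative changes than N2, and against pie-1 342 more positive changes (5.33% of 6419 probe sets) and 74 fewer than the 197 more negative ones (1.92%), from fewer probe sets tested. The cause of the other shifts was not tested. With the replicate number as a replicate block there were 1067 rises and 777 falls. Same-numbered arrays correlated in their deviations by -0.257, -0.198, 0.173 and 0.016. Without the correlations of different-numbered arrays beside them, these values cannot decide whether the numbers pair the samples. Of 2533 recomputed changes of the 143 named probe sets, 29 calls were lost (in 12 of the 106 called probe sets), 12 gained (in 7 probe sets) and 0 reversed. The setting without the fold minimum, in which no call can be lost, gave 5 of the gains. Of 67 checked differences from N2 none reversed, and those of pmt-2, hlh-1, tbx-8, pha-4, lpr-3, cpr-6, ceh-13, eya-1, vet-6, sqt-3, mec-7 and ced-6 were lost in at least 1 setting. Scan day as a block was not run, since all 8 arrays share 1 day. Probe sets near the floor of the signal limit what a fall or a tissue marker can show.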

Other observations

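Replicate 7 at 186 min lay far above its group for some genes. Of the 45 probe sets (37 genes) in which it lay at least 1.5 above each other array at 186 min, 14 genes stood in the lists and the rest in none. Counted in each list that holds them, 7 were of the sarcomere, 4 of the basement membrane, 3 of the cuticle and 1, mex-3, of the maternal list. The gene ttr-2, of the transthyretin-related family, measured 8.00 in that array and 2.95 to 3.03 in the other 3 at 186 min, against 3.07 to 3.52 at 83 min. A probe set of the troponin C gene pat-10 measured 7.68 in it and 2.84 to 3.32 in the others, against 2.69 to 3.22 at 83 min. The type IV collagen gene emb-9 measured 5.92 in it and 2.67 to 2.81 in the others, against 2.61 to 3.03 at 83 min. Of the 45 probe sets 6 were called, and their calls are to be read with that array in mind. In 3 of the 45, an N2 array at 186 min also lay more than 1.5 above those other 3 mex-3/skn-1 arrays. The part of later embryos or of any other source in that array was not tested.

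Gene families of at least 8 measured genes were counted by name after the values were seen. Mitochondrial ribosomal protein genes rose beside the cytosolic ones, 13 of 25 mrps genes and 13 of 34 mrpl genes, with 0 falls in either. Among F-box genes of the fbxb family 42 of 95 fell and 1 rose. Of 19 skr genes, which encode Skp1-related partners of F-box proteins, 8 fell and 3 rose (skr-21 by 2.29, skr-19 by 1.44 and skr-20 by 1.27). Over all genes 5.07% rose and 3.72% fell. By chromosome, 6.75% of genes on III and 6.11% on X rose, against 2.80% on V.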
